A study of Mus musculus with 14 samples.

Results

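The mRNA levels of 10 genes of the integrated stress response and of serine synthesis were examined in bulk CT26 tumors, out of 53801 Ensembl genes quantified in each tumor. The 10 genes were taken from a fixed list by their mouse symbols: Atf4, Ddit3, Trib3, Chac1, Asns, Psat1, Phgdh, Sesn2, Slc7a11, and Hspa5. Each symbol was found in the annotation, and all 10 genes passed the filter on low counts. In responder tumors, Ddit3, Chac1, and Phgdh were lower than in non-responder tumors, and Ddit3, Chac1, and Trib3 were lower than in control tumors. The other members did not pass the test in either comparison, and no member passed it between non-responder and control tumors.

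CT26 is a colon carcinoma line of the Balb/c mouse, here carrying a library of DNA barcodes so that clones could be followed. Female Balb/c mice aged 6 to 8 weeks received 250000 of these cells under the skin of each flank. Treatment began on day 7 with 200 µg of antibody into the abdominal cavity every 3 days, for 5 doses, and tumors were taken 3 days after the last dose. The 5 control tumors came from 4 mice given control IgG, and the anti-PD-1 tumors were classed by their final size relative to the controls, giving 5 responder tumors from 4 mice and 4 non-responder tumors from 3 mice. All 14 tumors therefore started from the same barcoded cells and share the host strain and the dosing schedule. At harvest, per the authors, responders differed from control tumors in clonal makeup and had a more uneven barcode distribution than non-responders. A tumor is named by its mouse number and flank. Mice 14, 30, and 33 each gave a tumor of the left (L) and of the right (R) flank, so the tumors are not all independent and p-values measure the spread between tumors. The tissue is bulk tumor, in which fewer cancer cells, less RNA per cancer cell, and a different mix of clones cannot be told apart.

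The integrated stress response starts when kinases that sense unfolded protein, lack of amino acids, viral RNA, or lack of heme phosphorylate the translation factor eIF2. General translation then slows while the mRNA of the transcription factor ATF4 is translated more, so the level of Atf4 mRNA is only part of its control. ATF4 and its partners induce genes of amino acid synthesis and transport, redox balance, and, under prolonged stress, cell death, and in tumors the pathway is known for helping cells through shortage of nutrients. Serine is made from a glycolytic intermediate by PHGDH, PSAT1, and PSPH in turn, and it feeds glycine and one-carbon metabolism.

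ATF4 binds, as a dimer with C/EBP proteins, to a composite element named CARE, whose core is TTGCATCA. The core and a looser form, TTNCATCA, which includes the exact core, were searched on both strands from 250 bases before to 50 bases after each RefSeq start site (GRCm38.p6). Of 32851 such windows, 294 (0.895%) held the exact core and 1304 (3.97%) held the loose form. Among the 10 members, Chac1 and Slc7a11 had the exact core and Asns and Trib3 only the loose form. The ER stress element, CCAAT followed 9 bases later by CCACG, was present in 39 windows (0.119%), with Hspa5 as the only member. The matches are shown because CARE and the ER stress element are known binding sites of ATF4 and of ATF6. The matched letters are in capitals, and each run is written along the strand of its gene. The Chac1 run is chr2:119351009-119351096 on the plus strand, and its match began 193 bases before the start site. The Slc7a11 run is chr3:50443615-50443719 on the minus strand, with 2 copies in opposite orientation that began 66 and 47 bases before the start. The Asns run is chr6:7693214-7693243 on the minus strand, the Trib3 run chr2:152344028-152344057 on the minus strand, and the Hspa5 run chr2:34772020-34772048 on the plus strand. These 3 matches lie in or overlap an annotated first exon and are cut to at most 30 bases.
Chac1: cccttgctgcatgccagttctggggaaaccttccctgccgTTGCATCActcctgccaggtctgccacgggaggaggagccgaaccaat
Slc7a11: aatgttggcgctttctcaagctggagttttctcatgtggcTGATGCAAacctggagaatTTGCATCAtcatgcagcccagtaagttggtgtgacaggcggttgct
Asns: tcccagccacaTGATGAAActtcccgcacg
Trib3: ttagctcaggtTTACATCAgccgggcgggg
Hspa5: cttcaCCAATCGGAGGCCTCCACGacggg
Of the genes that differed between groups, Chac1 and Trib3 are thus among those with a match, whereas neither Ddit3 nor Phgdh had one of these letter strings in the window searched. Asns, Slc7a11, and Hspa5 also had a match but were not called in any comparison. Elements more than 250 bases before the start site were not searched, so the absence of a match holds for the window only. A match is a description of the sequence and was not measured as binding.

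Levels between genes were compared on the deposited TPM scale, which divides by effective gene length and sets every library to the same total. In control tumors Hspa5, which encodes the ER chaperone BiP, had the highest level at 751 ± 15.5 TPM (SD, n = 5). Atf4 at 470.4 ± 28.9 and Phgdh at 468 ± 43.2 TPM did not differ beyond their spread. Asns, the enzyme that makes asparagine, at 248 ± 28.1 and Psat1 at 226 ± 8.21 TPM also overlapped. Below them came Ddit3 at 135 ± 40.4, Trib3 at 59.1 ± 20.7, and Chac1 at 36.45 ± 6.83 TPM, of which Trib3 and Chac1 overlapped. Sesn2 at 14.3 ± 3.35 and Slc7a11 at 2.30 ± 0.865 TPM were the lowest. The same order held by group mean in responder and non-responder tumors, except that Phgdh there stood above Atf4, at 419 ± 60.9 against 409 ± 39.9 TPM in responder tumors and 515 ± 37.8 against 437 ± 9.41 TPM in non-responder tumors.

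**Figure D1:**
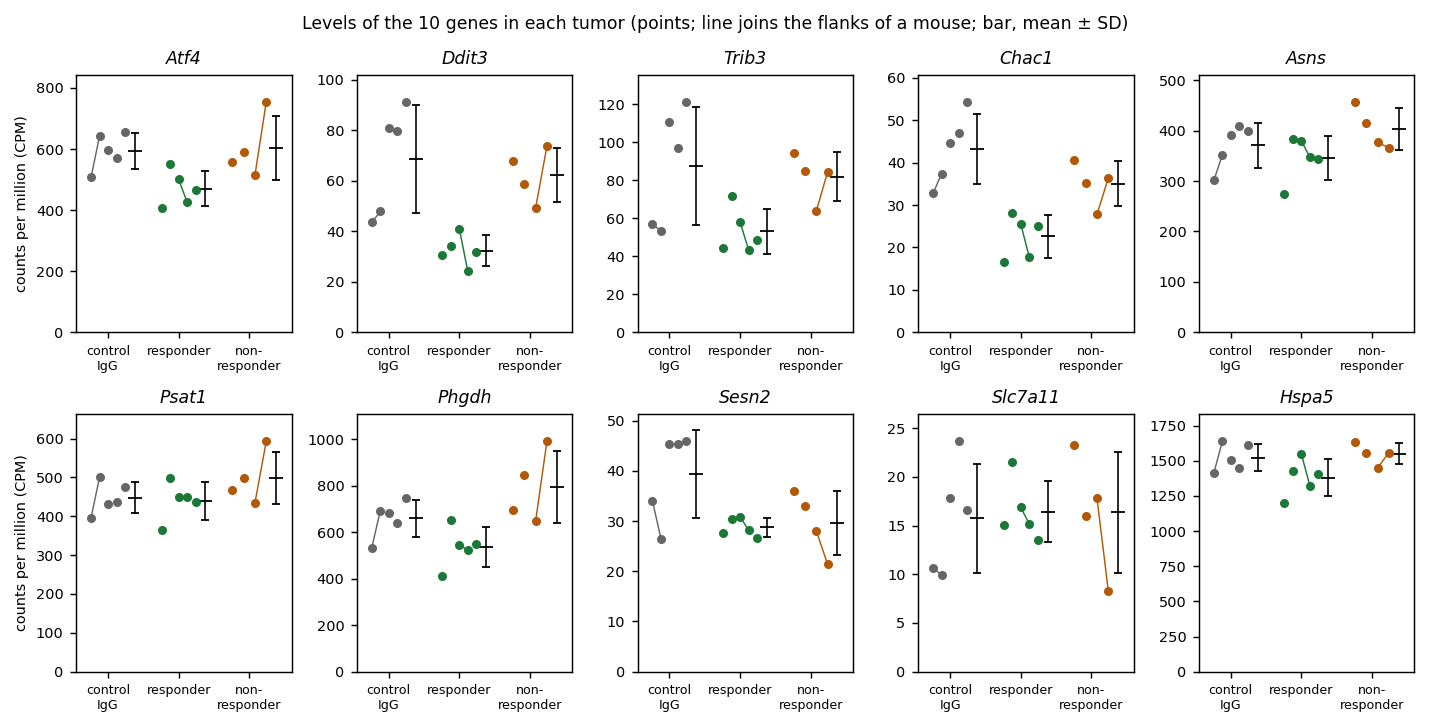
CPM of each gene, counts scaled to the library total (y axis, starting at 0) in the 14 tumors by group (x axis), with a point for each tumor, a line between the flanks of a mouse, and a bar for the mean ± SD of the group. The 5 responder points of Ddit3 lie at or below 41.0 CPM, under every control and non-responder point, while those of Slc7a11 lie among the others, and so do those of Psat1 except 24L, the lowest of all tumors at 364 CPM.

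Differences between groups were tested with edgeR's quasi-likelihood test on all 16287 genes that passed the filter, and the p-values were adjusted over all of them. Values by tumor are CPM, the counts of a gene scaled to a common library total with TMM factors. Between responder and non-responder tumors, 3 of the 10 members were called lower at an adjusted p under 0.05 and none higher, where 9.9% of all genes tested were called, 4.82% lower and 5.08% higher. The count of 3 dropped to 1, Ddit3, without any one of the tumors 24L, 30R, 32R, or 33R, and to 0 without both tumors of mouse 30 or of mouse 33. In direction, 9 of the 10 were lower, with a median log2 fold change of -0.29 against 0.01 over all genes. On the log2(TPM + 1) scale 5 of the 10 were lower with a median of -0.04, while the median of all genes on that scale lay at 0.20. Between responder and control tumors, 3 members were called lower and none higher, where 13.2% of all genes were called, 5.3% lower and 7.88% higher, and the median of the members was -0.32. Between non-responder and control tumors no member was called, and neither was any of the 16287 genes (0%), although 758 genes (4.65%) had an unadjusted p under 0.05 in edgeR and 16 were called by DESeq2. The members counted 4 lower and 6 higher in this comparison, with a median of 0.02. The 2 comparisons with control tumors share these 5 tumors.

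**Figure D2:**
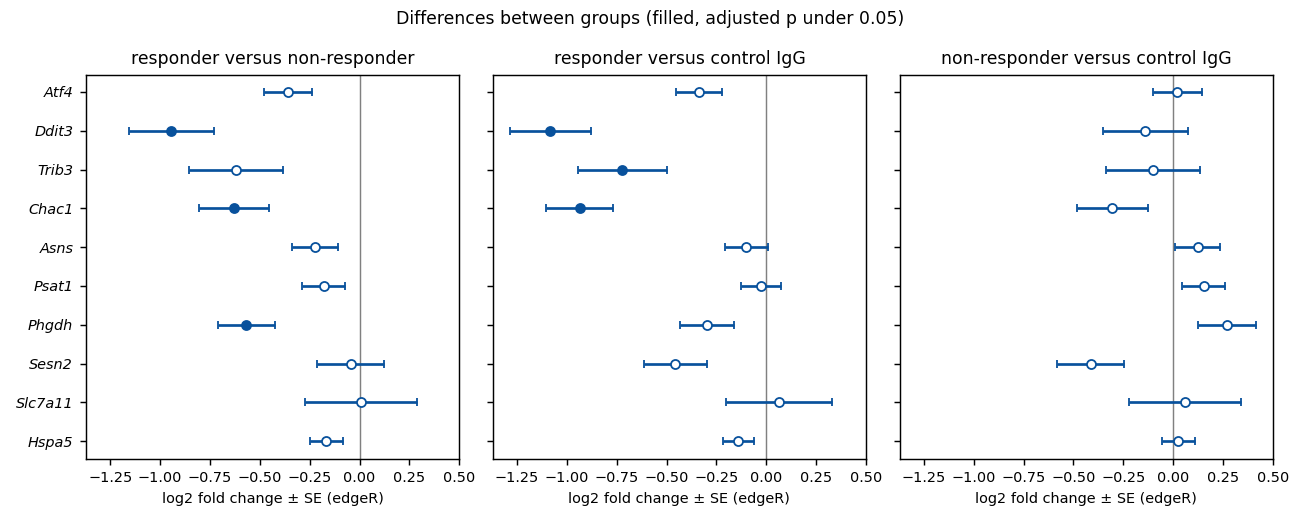
Log2 fold change ± SE of each gene (x axis, edgeR; negative, lower in the group named first) in the 3 comparisons, with filled points for an adjusted p under 0.05. Ddit3 and Chac1 are filled in both comparisons of responder tumors, Phgdh against non-responder and Trib3 against control tumors, and none is filled between non-responder and control tumors; on the TPM scale the small differences of Asns, Psat1, Sesn2, and Hspa5 against non-responder tumors change sign.

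Atf4 (ENSMUSG00000042406, chr15:80255184-80257541), the transcription factor at the centre of the response, did not pass the test. Its CPM was 508 and 642 in control tumors 14L and 14R and 597, 569.7, and 656 in 16R, 17R, and 20R. In responder tumors 24L, 26R, 30L, 30R, and 35L it was 407, 551, 501, 426, and 465, and in non-responder tumors 29L, 32R, 33L, and 33R it was 556, 589, 514, and 753. In CPM, tumor 33R stood above the rest, and responder tumor 26R lay within the range of both other groups. On the TPM scale 33R was at 445, below control tumor 20R at 511. The log2 fold change of responder tumors was -0.36 (SE 0.12) against non-responder tumors and -0.34 (SE 0.11) against control tumors, with edgeR adjusted p-values of 0.0719 and 0.0653. Atf4 was in both comparisons the member closest to the threshold without passing it. Over the 14 alternatives without leave-one-out fits, 2 and 6 gave Atf4 an adjusted p under 0.05, with ranges of 0.0293 to 0.324 and 0.0222 to 0.197. Against non-responder tumors these 2 were DESeq2 and limma-voom with mouse as a block, at an estimated correlation within mice of -0.282, and with the tumors of a mouse summed the adjusted p was 0.0530.

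Ddit3 (ENSMUSG00000025408, chr10:127290774-127296288) encodes CHOP, a transcription factor induced by ATF4 that is linked to cell death under lasting stress. It was 30.6, 34.4, 41.0, 24.2, and 32.0 CPM in responder tumors 24L, 26R, 30L, 30R, and 35L. In non-responder tumors 29L, 32R, 33L, and 33R it was 67.8, 58.6, 49.2, and 73.7 CPM. In control tumors it was 43.5 and 47.9 CPM in the flanks of mouse 14 and 81.0, 79.6, and 91.2 CPM in 16R, 17R, and 20R. The responder tumors thus did not overlap with either group, although both tumors of mouse 14 came close to responder tumor 30L. A group of lower tumors without overlap was seen for 6.04% of all genes against non-responder and for 6.72% against control tumors. Ddit3 fell by 0.94 on the log2 scale (SE 0.21) in responder against non-responder tumors, a level 1.92-fold lower, with an edgeR adjusted p of 0.0180. Against control tumors it fell by 1.08 (SE 0.20), 2.12-fold, with an adjusted p of 0.00412. Both calls held whichever single tumor was left out. Without both tumors of mouse 30 or of mouse 33, the difference to non-responder tumors was -0.95 in each case with adjusted p-values of 0.0711 and 0.0864, whereas the call against control tumors held in all alternatives, with adjusted p-values up to 0.0225. Ddit3 lies on the opposite strand to Mars, which had 143 to 206 CPM. Whether the counting used strand was not given in the sources used here. Ddit3 had fractional expected counts in 0 of the 14 tumors, so its counts show no sign of fragments divided with Mars. No other check separated Mars reads from those of Ddit3.

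Trib3 (ENSMUSG00000032715, chr2:152337422-152344032) encodes a pseudokinase that is induced by ATF4 and CHOP and dampens ATF4. It was 57.1 and 53.2 CPM in control tumors 14L and 14R and 110, 96.8, and 121 CPM in 16R, 17R, and 20R. In responder tumors 24L, 26R, 30L, 30R, and 35L it was 44.2, 71.8, 58.2, 43.6, and 48.4 CPM. In non-responder tumors 29L, 32R, 33L, and 33R it was 94.4, 84.8, 63.8, and 84.4 CPM. The 2 control tumors of mouse 14 thus lay among the responder tumors, and the other 3 controls lay above all non-responder tumors. Trib3 fell by 0.72 on the log2 scale (SE 0.22) in responder against control tumors, with an edgeR adjusted p of 0.0465. This call was lost in 9 of 14 fits that left out 1 tumor, namely 16R, 17R, 20R, 24L, 30L, 30R, 35L, 29L, or 32R, with adjusted p-values of 0.0165 to 0.134. It was also lost in 7 of the 14 other alternatives, among them log2(TPM + 1), where the difference was -0.51 with an adjusted p of 0.157, limma-voom, and both tumors of mouse 30 left out. Against non-responder tumors the log2 fold change was -0.62 (SE 0.24), with an adjusted p of 0.1025, and without both tumors of mouse 14 the adjusted p was 0.0323.

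Chac1 (ENSMUSG00000027313, chr2:119351229-119354381) encodes an enzyme that degrades glutathione and is induced through ATF4. It was 16.6, 28.1, 25.6, 17.8, and 25.0 CPM in responder tumors 24L, 26R, 30L, 30R, and 35L. In control tumors 14L, 14R, 16R, 17R, and 20R it was 32.8, 37.4, 44.7, 46.9, and 54.2 CPM, and in non-responder tumors 29L, 32R, 33L, and 33R it was 40.6, 35.2, 27.8, and 36.3 CPM. All responder tumors lay below all control tumors, and only responder tumor 26R lay above the lowest non-responder tumor, 33L. Chac1 fell by 0.94 on the log2 scale (SE 0.17) against control tumors, 1.91-fold, with an edgeR adjusted p of 0.00307. That call held in all alternatives and all fits that left out 1 tumor, with adjusted p-values up to 0.0241. Against non-responder tumors it fell by 0.63 (SE 0.18), 1.55-fold, with an adjusted p of 0.0380. This call was lost without 17R, 24L, 30R, 29L, 32R, or 33R, with adjusted p-values of 0.0291 to 0.0937 over the 14 such fits, and on the log2(TPM + 1) scale the difference was -0.38 with an adjusted p of 0.117. It was also lost with the gene length trend removed, where the difference was -0.58 with an edgeR adjusted p of 0.0702. With only the groups compared the adjusted p was 0.0694, and the call was lost without mouse 30 or mouse 33 too.

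Phgdh (ENSMUSG00000053398, chr3:98313170-98339990) encodes phosphoglycerate dehydrogenase, the first enzyme of serine synthesis. It was 413, 655, 544, 524, and 548 CPM in responder tumors 24L, 26R, 30L, 30R, and 35L. In non-responder tumors 29L, 32R, 33L, and 33R it was 696, 847, 648, and 990.3 CPM. In control tumors 14L, 14R, 16R, 17R, and 20R it was 532, 691, 684, 642, and 747 CPM. Responder and non-responder tumors overlapped only through 26R, at 655 against 648 CPM in 33L, and the control tumors reached into both groups. Phgdh fell by 0.57 on the log2 scale (SE 0.14) in responder against non-responder tumors, 1.48-fold, with an edgeR adjusted p of 0.0270. Against control tumors the log2 fold change was -0.30 (SE 0.14, adjusted p 0.172), and that of non-responder against control tumors was 0.27 (SE 0.14, adjusted p 0.931). The call against non-responder tumors was lost without 24L, 30R, 32R, or 33R, with adjusted p-values of 0.0205 to 0.0892, and on the log2(TPM + 1) scale the difference was -0.31 with an adjusted p of 0.0598. Phgdh was the only member with fractional expected counts, in all 14 tumors, so part of its fragments also matched other genes and were divided among them by the authors' quantification.

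Psat1 (ENSMUSG00000024640, chr19:15904678-15947337), the next enzyme of serine synthesis, and Asns (ENSMUSG00000029752, chr6:7675169-7693254) did not pass the test in any comparison. Psat1 was 364 to 499 CPM in responder tumors, 434 to 592 in non-responder tumors, and 396 to 500.2 in control tumors, and the highest CPM was that of 33R and the lowest that of 24L. On the TPM scale 33R was at 221, below responder tumor 26R at 271. Its log2 fold change was -0.18 (SE 0.11, edgeR adjusted p 0.293) against non-responder tumors and -0.03 (SE 0.10, adjusted p 0.898) against control tumors. Asns was 275 to 383 CPM in responder tumors, 366 to 456 in non-responder tumors, and 301 to 409 in control tumors. Its log2 fold change was -0.22 (SE 0.11, adjusted p 0.222) against non-responder tumors and -0.10 (SE 0.11, adjusted p 0.596) against control tumors. On the log2(TPM + 1) scale both genes had differences of opposite sign in both comparisons, of 0.08 and 0.03 against non-responder and 0.11 and 0.04 against control tumors, so no direction is given for either gene.

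Sesn2 (ENSMUSG00000028893, chr4:132492032-132510501), a stress-induced inhibitor of the growth kinase complex mTORC1, and Slc7a11 (ENSMUSG00000027737, chr3:49892526-50443614), the transporter that imports cystine for glutathione, did not pass the test in any comparison. Sesn2 was 34.1 and 26.5 CPM in control tumors 14L and 14R but 45.3, 45.4, and 45.9 CPM in 16R, 17R, and 20R. In responder tumors 24L, 26R, 30L, 30R, and 35L it was 27.6, 30.4, 30.9, 28.2, and 26.6 CPM, and in non-responder tumors 29L, 32R, 33L, and 33R it was 36.0, 33.0, 28.1, and 21.4 CPM. The 3 control tumors outside mouse 14 thus lay above all anti-PD-1 tumors of either class. The log2 fold change of Sesn2 was -0.46 (SE 0.16, edgeR adjusted p 0.0690) in responder and -0.41 (SE 0.17, adjusted p 0.931, unadjusted 0.0271) in non-responder against control tumors, and -0.04 (SE 0.17, adjusted p 0.893) between responder and non-responder tumors. Of the 14 alternatives, 6 gave the responder against control difference an adjusted p under 0.05, and without both tumors of mouse 14 it was 0.00980. Slc7a11 ranged from 8.30 CPM in 33R to 23.6 CPM in 17R, and 33R, 14R, and 14L were its 3 lowest tumors. Its log2 fold changes were 0.00 (SE 0.28) against non-responder and 0.06 (SE 0.26) against control tumors, within their errors, and the sign changed with the processing. It was also the least abundant member, with 262 to 980 expected counts per tumor.

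Hspa5 (ENSMUSG00000026864, chr2:34771970-34777547) is a target of the ATF6 and XBP1 arms of the unfolded protein response as well as of ATF4. It was 1202 to 1549 CPM in responder tumors, 1451 to 1633 in non-responder tumors, and 1412 to 1638 in control tumors, and its lowest value was that of responder tumor 24L. The log2 fold change of responder tumors was -0.17 (SE 0.08, edgeR adjusted p 0.208) against non-responder and -0.14 (SE 0.08, adjusted p 0.261) against control tumors, and on the log2(TPM + 1) scale it was 0.11 and -0.03. Hspa5 had the smallest standard error of the 10 members in each comparison.

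**Figure D3:**
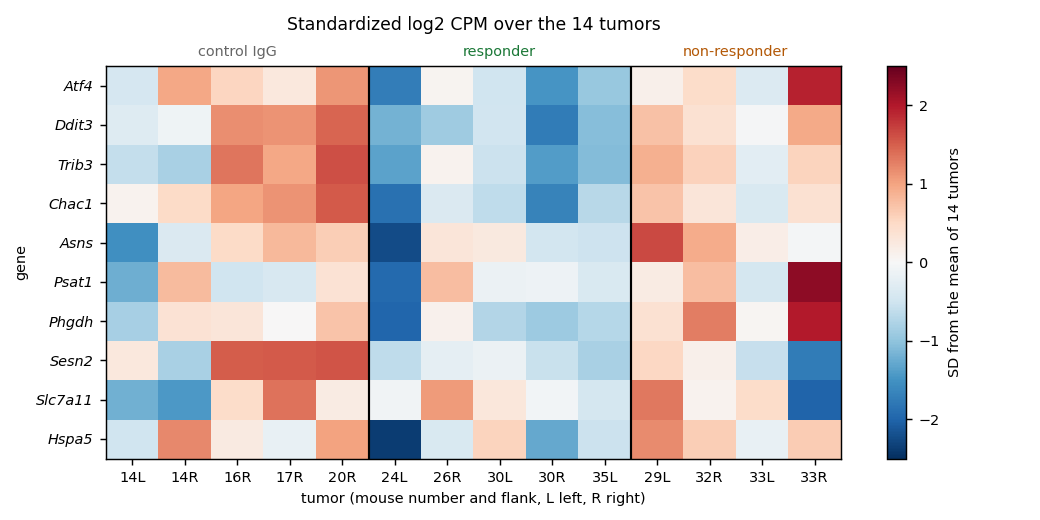
Standardized log2 CPM (color, in SD from the mean of the 14 tumors) of each gene (rows) in each tumor (columns, by group). Responder tumors 24L and 30R are below the mean for all 10 genes, and 33R combines the highest Atf4, Psat1, and Phgdh with the lowest Sesn2 and Slc7a11. On the TPM scale 33R is not the highest for Atf4 (445 against 511 in 20R), Psat1 (221 against 271 in 26R), or Phgdh (524 against 564 in 32R). Sesn2 and Slc7a11 are lowest in 33R on that scale too.

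The members did not move as 1 block across tumors. Over the 14 tumors, log2 CPM had a Pearson r above 0.6 in 26 of the 45 pairs of members and below 0 in 5. These are descriptions with no test, since tumors of a group and of a mouse share their treatment or host. Correlations were computed on log2 CPM only and not on the TPM scale. Ddit3, Trib3, and Chac1 were the closest set, with r of 0.93 for Ddit3 with Chac1, 0.92 for Ddit3 with Trib3, and 0.88 for Trib3 with Chac1. After each group's mean was subtracted these were 0.81, 0.89, and 0.84. In CPM, Atf4, Phgdh, and Psat1 were another set. Their r was 0.91 for Atf4 with Phgdh, 0.87 for Psat1 with Phgdh, and 0.78 for Atf4 with Psat1. After subtracting group means these were 0.93, 0.94, and 0.92. Tumor 33R had the highest CPM for each of these genes but not the highest TPM. In TPM it was at 445 for Atf4 against 511 in 20R, and at 221 for Psat1 against 271 in 26R. Whether this set holds in TPM was not tested. Sesn2 and Slc7a11 had r of 0.62, and 0.88 within groups. The lowest value, -0.29, was that of Psat1 with Sesn2, both of which ATF4 is known to induce, and Atf4 itself had r of only 0.13 with Sesn2. The mean of the 10 standardized levels ran from -1.54 in responder tumor 24L to 1.02 in control tumor 20R, and in the responder tumors only 26R was above 0, at 0.05.

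**Figure D4:**
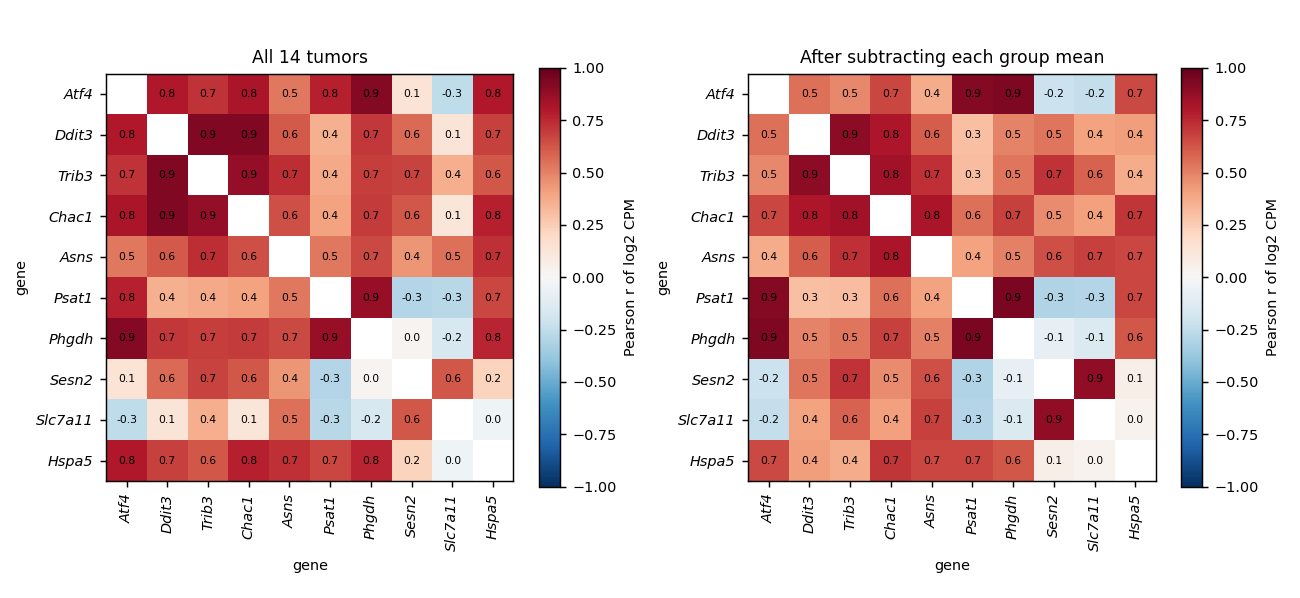
Pearson r of log2 CPM for each pair of the 10 genes (rows and columns) over the 14 tumors on the left and after subtracting each group's mean on the right. The pairs of Ddit3, Trib3, and Chac1 and the pairs of Atf4, Phgdh, and Psat1 are high in both panels, while Sesn2 and Slc7a11 are near or below 0 with Atf4, Phgdh, and Psat1.

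Among all genes tested, those with the highest Pearson r to a member over the 14 tumors included known stress genes. For Ddit3 they were Gadd45a (0.97), Ppp1r15a (0.96), and Sqstm1 (0.96). For Trib3 they were Soat2 (0.96), Zfp202 (0.96), and Lmo4 (0.94), and for Chac1 they were Pam (0.95), Gadd45a (0.94), and Parn (0.93). Gadd45a and Ppp1r15a are growth arrest genes that respond to damage and stress. For Phgdh they were Gm7901 (0.97), 3110082I17Rik (0.97), and Psph (0.96), and Psph encodes the enzyme that completes serine synthesis. For Asns they were Gars (0.93), Gpt2 (0.91), and Nop2 (0.91), of which Gars charges the glycine tRNA and Gpt2 is an alanine aminotransferase. The genes most like Atf4 (Gm10260, Eny2, and Lias, 0.96 each) and those most like Psat1 (Clns1a, Rexo2, and Mrps35, 0.94 to 0.95) are given without a role. For Sesn2 they were Trim35, Arhgef2, and Padi2 (0.91 to 0.93), for Slc7a11 BC048403, Fam129a, and Abcb1a (0.89 to 0.92), and for Hspa5 C1qbp and Pdap1 (0.95 and 0.93).

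Upstream of ATF4, 21 genes of the eIF2 kinases, eIF2, eIF2B, and the phosphatase regulators were measured. In responder against non-responder tumors 13 of them had a log2 fold change below 0 and 8 above, with a median of -0.12. At an edgeR adjusted p under 0.05, 3 were called lower and 1 higher, where 4.82% and 5.08% of all genes tested were. Ppp1r15a encodes GADD34, which brings phosphatase to eIF2 and ends the response. It was 35.7, 46.1, 53.8, 32.5, and 48.7 CPM in responder tumors 24L, 26R, 30L, 30R, and 35L and 81.2, 82.8, 60.3, and 72.6 CPM in non-responder tumors 29L, 32R, 33L, and 33R. In control tumors 14L, 14R, 16R, 17R, and 20R it was 53.8, 55.7, 110, 101, and 97.8 CPM. Responder and non-responder tumors did not overlap, and the control tumors of mouse 14 were again low. It fell by 0.78 on the log2 scale (SE 0.22, edgeR adjusted p 0.0387) against non-responder and by 0.95 (SE 0.21, adjusted p 0.00919) against control tumors. The first call was lost in 8 of 14 fits that left out 1 tumor (17R, 24L, 26R, 30R, 35L, 29L, 32R, or 33R), and the second in none. Eif2b3 fell by 0.44 and Eif2s2 by 0.43, and Eif2ak2, the kinase PKR that senses viral RNA and is induced by interferon, rose by 0.45 (adjusted p 0.0498). Without tumor 33R none of the 21 genes was called, and Eif2s2 had fractional counts in all 14 tumors. The kinases Eif2ak3 (PERK) and Eif2ak4 (GCN2) had log2 fold changes of 0.12 and -0.01, with adjusted p-values of 0.546 and 0.980, and were named after their values were seen.

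Downstream, a list of 26 genes was measured, drawn up as other targets or partners of ATF4 and including Sesn1 and Sesn3. Against non-responder tumors 17 had a log2 fold change below 0 in responder tumors and 9 above, with a median of -0.18. Of the 26, 2 were called lower and 2 higher, where 4.82% and 5.08% of all genes tested were, and the 2 called higher were Sesn1 and Sesn3. Soat2, which esterifies cholesterol, was 13.1 to 17.5 CPM in responder tumors, 21.8 to 28.7 in non-responder tumors, and 15.8 to 33.1 in control tumors, and it fell by 0.79 (SE 0.19, edgeR adjusted p 0.0244). Eif4ebp1, a translation repressor, was 193 to 241 CPM in responder and 228 to 337 CPM in non-responder tumors and fell by 0.48 (SE 0.12, adjusted p 0.0284). The call of Soat2 was lost without 24L, 30R, or 32R, and that of Eif4ebp1 without these or 33R or 35L. Sesn1 and Sesn3, relatives of Sesn2, were higher in responder tumors. Sesn1 was 44.4 ± 4.98 CPM in responder tumors (SD, n = 5), 32.7 ± 4.43 in non-responder tumors (n = 4), and 29.1 ± 1.65 in control tumors (n = 5), and it rose by 0.44 (SE 0.10, adjusted p 0.0192) and, against control tumors, by 0.61 (SE 0.10, adjusted p 0.00174). Sesn3 was 7.78 to 10.3 CPM in responder tumors, 5.43 to 6.57 in non-responder tumors, and 4.68 to 6.62 in control tumors, and it rose by 0.64 (SE 0.13, adjusted p 0.0123) and 0.74 (SE 0.12, adjusted p 0.00207). The call of Sesn1 against non-responder tumors was lost without 24L, 30R, or 32R, and that of Sesn3 in no such fit. On the log2(TPM + 1) and log2(TPM + 0.1) scales the calls of Sesn3 were lost in both comparisons, with adjusted p-values up to 0.149 and 0.238. Sesn1 is also known as a target of p53 and Sesn3 of FOXO factors, and what raised these 2 genes was not tested. Against control tumors 16 of the 26 were below 0 and 10 above. There 5 were called lower and 2, again Sesn1 and Sesn3, higher, where 5.3% and 7.88% of all genes tested were. The 5 called lower, named after their values were seen, were Adm2, Soat2, Nupr1, Tnfrsf10b, and Mthfd2, with log2 fold changes of -1.59, -0.78, -0.70, -0.47, and -0.41. The call of Nupr1 was lost without 17R, 20R, or 24L, and that of Mthfd2 without these or 16R or 35L, and the other 3 held with any 1 tumor left out. On the TPM scale the calls of Nupr1, Mthfd2, Tnfrsf10b, and Soat2 were lost, as were those of Nupr1, Soat2, and Adm2 without mouse 30 and that of Tnfrsf10b without mouse 14. Adm2 was below 1 CPM on average in each group.

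Among 26 other genes of serine, glycine, one-carbon, and proline synthesis, 22 had a log2 fold change below 0 in responder against non-responder tumors, with a median of -0.18. Of the 26, 2 were called lower and 1 higher, where 4.82% and 5.08% of all genes tested were. On the log2(TPM + 1) scale 12 of 25 were below 0. Psph was 52.9 to 72.7 CPM in responder tumors, 62.5 to 81.8 in control tumors, and 77.5, 87.4, 69.7, and 126 CPM in non-responder tumors 29L, 32R, 33L, and 33R. It fell by 0.52 (SE 0.15, edgeR adjusted p 0.0401), a call lost in 8 of 14 fits that left out 1 tumor (16R, 17R, 24L, 30L, 30R, 35L, 32R, or 33R), and it too had fractional counts in all 14 tumors. Aldh1l1, which oxidizes a folate-bound carbon, rose by 0.80 (adjusted p 0.0382), a call lost without 24L, 29L, 30L, 30R, 32R, or 33R. Of 22 cytosolic aminoacyl-tRNA synthetase genes, 17 were below 0 (7 on the log2(TPM + 1) scale, with none called). Of these 22, 2 were called lower, Aimp1 by 0.40 and Farsb by 0.33, where 4.82% of all genes tested were. None of the 22 was called without 16R, 17R, 24L, 30R, 32R, 33R, or 35L. Of 14 amino acid transporters, none was called against non-responder tumors. Against control tumors 1, Slc43a1, was called higher by 1.03 (edgeR adjusted p 0.0416), where 7.88% of all genes tested were. This call was lost without 14L, 16R, 17R, 20R, 24L, 30L, 30R, or 35L, and Slc43a1 was named after its value was seen. Against non-responder tumors, the calls of Ppp1r15a, Eif2b3, Eif2s2, Soat2, Eif4ebp1, Psph, Aimp1, and Farsb were lost on the TPM scale, and these and the calls of Eif2ak2, Sesn1, Sesn3, and Aldh1l1 were lost without mouse 30 and without mouse 33.

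Of 29 genes of the ER chaperones and of the ATF6 and XBP1 arms, none was called in any of the 3 comparisons with edgeR, and the median was 0.02 against non-responder and 0.00 against control tumors. Hsp90b1, the chaperone GRP94, had log2 fold changes of 0.09 (SE 0.10) and 0.00 (SE 0.10) in these comparisons, and Xbp1 had -0.13 (SE 0.10) and -0.03 (SE 0.09), both named after their values were seen. On the log2(TPM + 1) scale 8 of the 29 were called higher against non-responder tumors, as were 1930 of all 13549 genes tested. The median of all genes on that scale also lay at 0.20.

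**Figure D5:**
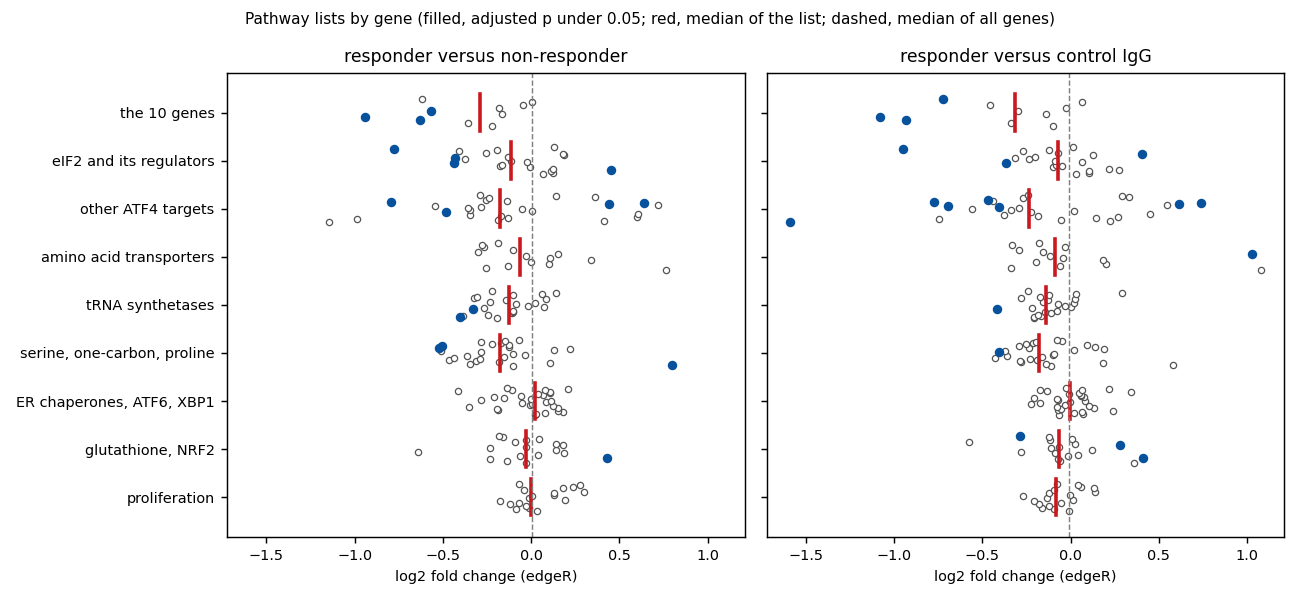
Log2 fold change of each gene tested (x axis, edgeR) by pathway list (rows) in responder against non-responder tumors on the left and against control tumors on the right, with filled points for an adjusted p under 0.05, a red bar at the median of the list, and a dashed line at the median of all genes. The 10 members have the lowest medians, -0.29 and -0.32, and the ER chaperones lie at 0.02 and 0.00; on the TPM scale the list medians against non-responder tumors lie above 0 except for the members.

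The groups also differed in other cells and in library properties. In responder against non-responder tumors 11 of 12 T and NK cell markers had a log2 fold change above 0. Of the 12, 7 were called higher, where 5.08% of all genes tested were. Their summed level was 160 to 344 CPM in responder, 142 to 277 in non-responder, and 119 to 190 CPM in control tumors. All 12 macrophage and monocyte markers were above 0 and 2 were called higher, with sums of 2314 to 2826, 1847 to 2279, and 2003 to 2233 CPM. All 9 B and plasma cell markers tested were above 0 and 4 were called higher, with sums of 109 to 161, 72.1 to 81.7, and 72.6 to 85.5 CPM. Ly6g of the neutrophil list was at 0 in at least 1 tumor and did not pass the filter. All 6 erythroid markers tested were below 0 and 5 were called lower, where 4.82% of all genes tested were. Their sums were 59.4 to 283 CPM in responder, 376 to 2068 in non-responder, and 71.6 to 1911 in control tumors. For neutrophils (of 6) and fibroblasts (of 10) 1 marker each was called higher, with 3 and 8 above 0. None of the endothelial (8), epidermal (12), skeletal muscle (9), colon epithelial (7), or proliferation (18) genes was called, although all 8 endothelial and 11 epidermal markers were above 0. Against control tumors 10 of the T and NK cell, 2 of the macrophage and monocyte, 6 of the B and plasma cell, and 1 of the neutrophil markers were called higher, and 3 of the erythroid markers were called lower. In this comparison 7.88% of all genes tested were called higher and 5.3% lower. All T and NK cell, macrophage and monocyte, and B and plasma cell markers tested were above 0 there, and all erythroid markers below 0. All 8 endothelial markers were above 0 there and 3 were called higher, with sums of 250.7 to 315.6 CPM in responder and 168.3 to 249.3 CPM in control tumors, which did not overlap. Of the fibroblast markers 8 were above 0, and 3 were called higher and 1 lower, with sums of 2931 to 4908 against 2454 to 3144 CPM. Among the colon epithelial markers 1 was called lower, and no epidermal, skeletal muscle, or proliferation gene was called. Of the colon epithelial markers, Krt20 was at 202 to 489 CPM and Epcam at 0.554 to 5.33 CPM, while Vil1, Muc2, and Cldn7 were at or near 0. The mean fragment length of the libraries was 268 to 276.0 bases in responder, 276.5 to 287 in non-responder, and 268 to 277 in control tumors, and total expected counts were between 33237744 and 48481461 in all. The part of these differences in the results for the 10 genes was not tested.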

How the data were processed

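RNA of 14 bulk tumors was sequenced by the authors, who per their methods used STAR (genome mm10) for alignment and RSEM for gene quantification. The authors deposited, for each tumor, expected counts (RSEM's estimate of the fragments of a gene, not normalized), TPM (the same estimates divided by effective length and scaled to 1 total), and FPKM, which was not used here. The effective lengths that the authors deposited served only to derive the mean fragment length. Ensembl IDs were named with GENCODE M21, and 53620 of 53801 had a symbol.

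For testing, expected counts were made whole by rounding. The software was edgeR 4.0.16 under R 4.3.3, with TMM, filterByExpr, and the quasi-likelihood test with all 14 tumors and group as the only term. P-values were adjusted by Benjamini-Hochberg over 16287 genes and called under 0.05. Log2 CPM used a prior count of 2. Groups came from the labels. Totals of 33237744 to 48481461 counts gave each member at least 262 counts. The steps were checked on simulated counts.

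The alternatives were DESeq2 1.42.0, limma-voom (limma 3.58.1) with or without mouse as a random effect, tumors of a mouse summed, other size factors, no filter, only the groups compared, removal of the length trend, log2(TPM + 1) and log2(TPM + 0.1) with at least 1 TPM in 4 tumors, each tumor left out, and, chosen after seeing the data, both tumors of mouse 14, 30, or 33 left out. The members, the pathway and marker lists, and the tests were chosen with earlier results of these data known. All members are named. Of each other list, those with the smallest adjusted p against non-responder tumors are named, up to 4, with any other gene called there, and of all genes the 3 most like each member by Pearson r. Promoter sequences are from RefSeq (GRCm38.p6). Some genes that these rules select are not reported here.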

Additional observations from a re-analysis of the deposited data

How the results depend on the processing

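The calls of Ddit3 and Chac1 against control tumors held under every alternative. The count of genes called in responder against non-responder tumors, 1612, moved to 2559 with DESeq2, 2973 when limma-voom held mouse as a block, 689 with only the groups compared, 197 without mouse 30, and 59 without mouse 33. With 1 tumor left out it was 569 to 1978. The 3 members called became 1 with only the groups compared, 1 with log2(TPM + 1), 1 with log2(TPM + 0.1), 0 without mouse 30, 0 without mouse 33, and 1 to 4 with 1 tumor left out. Against control tumors the 2147 genes moved to 922 without mouse 30, 3255 without mouse 33, and 1190 to 3385 with 1 tumor left out (1190 without 20R, 1192 without 24L, 1387 without 30R, and 3385 without 33R). The 3 members became 5 with DESeq2, tumors of a mouse summed, the length trend removed, or mouse 33 left out, 2 with limma-voom, no filter, either TPM scale, or mouse 30 left out, and 2 to 5 with 1 tumor left out. In non-responder against control tumors, the 0 genes became 16 with DESeq2, 3 without the filter, and 0 to 5 with 1 tumor left out (5 without 35L). Upper quartile and DESeq2 size factors kept every count of calls within 1.5 times. Of 840 recomputed member differences, 728 kept direction and side of the threshold, 39 lost the call, 22 gained it, and 51 changed sign, all among differences without a call.

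The TPM scale moved the median of all genes to 0.20 (responder against non-responder), 0.10 (responder against control), and -0.10 (non-responder against control). With log2(TPM + 1) and log2(TPM + 0.1), the differences against non-responder tumors were 0.028 and 0.028 for Asns, 0.083 and 0.083 for Psat1, 0.21 and 0.23 for Sesn2, and 0.11 and 0.11 for Hspa5. Against control tumors they were 0.037 and 0.037 for Asns and 0.11 and 0.11 for Psat1, and in non-responder against control tumors -0.11 and -0.11 for Atf4, -0.070 and -0.11 for Slc7a11, and -0.14 and -0.14 for Hspa5. Relative to the median of all genes on this scale, Ddit3, Chac1, and Phgdh were at -0.87, -0.58, and -0.51 against non-responder tumors. With tumors of a mouse summed, Slc7a11 was -0.090 and -0.048 in responder against non-responder and control tumors, and Atf4 -0.025 in non-responder against control tumors. With the length trend removed these were -0.19, -0.083, and -0.036. With mouse as a block in limma-voom, Sesn2 was 0.017 against non-responder tumors and Trib3 0.022 in non-responder against control tumors. Without mouse 14, Slc7a11 was -0.24 in responder and -0.25 in non-responder against control tumors, and Atf4 was -0.019 in the latter. Without mouse 33, Slc7a11 was -0.24 against non-responder tumors, and Atf4 and Trib3 were -0.066 and 0.020 in non-responder against control tumors. With 1 tumor left out, sign changes occurred against non-responder tumors for Sesn2 (-0.16 to 0.062) and Slc7a11 (-0.20 to 0.22), against control tumors for Psat1 (-0.076 to 0.035) and Slc7a11 (-0.063 to 0.26), and in non-responder against control tumors for Atf4 (-0.12 to 0.082), Trib3 (-0.24 to 0.044), Slc7a11 (-0.16 to 0.26), and Hspa5 (-0.0011 to 0.047). The cause was not tested. No paired analysis was possible because each mouse gave tumors to only 1 group and replicate numbers within a group are only names. The correlation within mice that limma estimated was -0.282.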

Other observations

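The flanks of a mouse, which share host and treatment, differed by member. In non-responder mouse 33, log2 CPM was higher in the right than in the left tumor for Phgdh (by 0.61), Ddit3 (0.58), Atf4 (0.55), Psat1 (0.45), Trib3 (0.40), and Chac1 (0.39), while Slc7a11 was lower on the right, at 8.30 against 17.8 CPM, and so was Sesn2, at 21.4 against 28.1 CPM. On the TPM scale the right tumor of mouse 33 was lower for Psat1 (221 against 228), Trib3 (43.6 against 44.5), and Chac1 (22.9 against 24.4). It was still higher in TPM for Atf4 (445 against 423), Ddit3 (112 against 101), and Phgdh (524 against 478). In responder mouse 30 the right tumor was lower in CPM than the left for 9 of 10 members, with Ddit3 at 24.2 against 41.0 CPM and Chac1 at 17.8 against 25.6 CPM. On the TPM scale Phgdh was higher on the right in mouse 30, at 434 against 411. In control mouse 14 the right tumor was higher in CPM for 7 members, Phgdh at 691 against 532 CPM among them, and lower for Trib3, Sesn2, and Slc7a11. On the TPM scale Ddit3 (88.7 against 94.5), Chac1 (29.25 against 29.68), and Hspa5 (747 against 771) were also lower on the right in mouse 14. These are single pairs without a test.

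Of 18 genes of cystine import, glutathione, and the NRF2 response, which protects against oxidants, 1 was called higher in responder against non-responder tumors, where 5.08% of all genes tested were. This was G6pdx, by 0.43 (SE 0.13, edgeR adjusted p 0.0436), a call lost without any one of 10 tumors (14L, 16R, 17R, 20R, 24L, 26R, 30L, 30R, 33L, or 35L). Against control tumors 1 was called lower, Txnrd1, by 0.29, and 2 called higher, G6pdx by 0.41 and Keap1 by 0.28. There 5.3% of all genes tested were called lower and 7.88% higher. The median of the list was -0.06, as against -0.03 in the comparison with non-responder tumors. The call of Keap1 was lost without 20R or 24L, that of G6pdx in 8 of 14 fits (without 14L, 14R, 16R, 20R, 24L, 30L, 30R, or 35L), and that of Txnrd1 on the TPM scale. Txnrd1 and Keap1 were named after their values were seen. Nfe2l2, Gclm, and Hmox1 had log2 fold changes of 0.14, 0.04, and -0.03 against non-responder tumors, with no call, and were likewise chosen after their values were seen.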
